A study of Mus musculus with 778 samples.

Results

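The genes described here are the 9 genes *Kit*, *Pik3ca*, *Pdpk1*, *Akt1*, *Foxo3*, *Tsc1*, *Tsc2*, *Rps6kb1* and *Cdkn1b*, which belong to the pathway that holds or releases the dormant oocyte of the primordial follicle. They were chosen by symbol as genes of that pathway, and all 9 were found among the 23201 genes of the count table. The study collected single oocytes from the ovaries of wild type ICR mice at 5 sizes and counted their polyA RNA with unique molecular identifiers (UMIs), which tag each captured molecule once. Non-growing oocytes (NGO), under 20 µm in diameter, came from females of 3 to 4 days. Growing oocytes of 30 to 45 µm (GO1), 50 to 55 µm (GO2) and 60 to 65 µm (GO3), and fully-grown oocytes (FGO) of over 70 µm, came from females of 3 to 4 weeks. Every difference between NGO and a later stage therefore holds the age of the mouse as well as the growth of the oocyte, and the 2 cannot be told apart. The labels give no treatment, transgene or deletion for any stage, and the number of animals behind each stage is not given in the sources used here.

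In a primordial follicle, KIT on the oocyte surface binds KIT ligand made by the surrounding granulosa cells and recruits phosphoinositide 3-kinase (PI3K). The lipid made by PI3K brings PDPK1 and AKT to the membrane, and active AKT phosphorylates FOXO3, a transcription factor that keeps the oocyte dormant while it is in the nucleus, so that FOXO3 leaves the nucleus. AKT also acts on the TSC1 and TSC2 complex, which restrains mTORC1, while CDKN1B, a cyclin-dependent kinase inhibitor, holds back growth by a separate arm. Much of this control is exerted through phosphorylation and the location of proteins, which counts of mRNA do not measure.

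Gene positions are those of GENCODE vM1 on the NCBIM37 build. *Kit* spans chromosome 5, 75970941 to 76052747, on the plus strand. *Pik3ca* spans chromosome 3, 32296593 to 32367408, also on the plus strand. *Pdpk1* and *Tsc2* lie on the minus strand of chromosome 17, at 24210647 to 24287891 and at 24732882 to 24769574. The remaining 5 are *Akt1* on chromosome 12 (113892032 to 113913095, minus), *Foxo3* on chromosome 10 (41901647 to 41996561, minus), *Tsc1* on chromosome 2 (28496748 to 28546687, plus), *Rps6kb1* on chromosome 11 (86312373 to 86358307, minus) and *Cdkn1b* on chromosome 6 (134870419 to 134875531, plus). *Tsc2* and *Rps6kb1* each overlap the end of a gene on the other strand. For *Tsc2* that gene is *Pkd1*, which was at 0.0401 CPM or less in every stage. For *Rps6kb1* it is *Rnft1*, at 48.5 to 58.9 CPM. Whether the counting used strand is not given in the sources used here, so reads of the shared ends of these genes could have been assigned to either.

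The promoters of the 3 genes that the text below returns to are shown here, *Kit* and *Pik3ca* because they were the members that passed the limit of size in all oocytes, and *Akt1* because it held the only match to the FOXO core motif. Each sequence runs 5′ to 3′ from 250 bases before to 50 bases after a transcription start and is taken from RefSeq (GRCm38.p6, a later build than the one used for the gene positions). Capitals mark the E-box CANNTG and the FOXO core TGTTTAC, searched on both strands, as were the NOBOX motif TAATTA, the CRE motif TGACGTCA and the TATA motif TATAAA. The windows are chr5:75574737-75575036 on the plus strand for *Kit*, chr3:32396815-32397114 on the plus strand for *Pik3ca* and chr12:112674835-112675134 on the minus strand for *Akt1*. The capitals do not overlap each other, and the window of *Pik3ca* held none of the 5 motifs. *Kit* and *Akt1* have another start each in the same table, and the first window of each is shown.
Kit: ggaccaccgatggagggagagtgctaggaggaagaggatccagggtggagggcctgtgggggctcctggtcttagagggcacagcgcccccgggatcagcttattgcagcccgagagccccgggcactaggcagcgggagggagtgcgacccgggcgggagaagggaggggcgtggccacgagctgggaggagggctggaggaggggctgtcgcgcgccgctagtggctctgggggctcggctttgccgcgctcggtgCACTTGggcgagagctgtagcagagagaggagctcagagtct
Pik3ca: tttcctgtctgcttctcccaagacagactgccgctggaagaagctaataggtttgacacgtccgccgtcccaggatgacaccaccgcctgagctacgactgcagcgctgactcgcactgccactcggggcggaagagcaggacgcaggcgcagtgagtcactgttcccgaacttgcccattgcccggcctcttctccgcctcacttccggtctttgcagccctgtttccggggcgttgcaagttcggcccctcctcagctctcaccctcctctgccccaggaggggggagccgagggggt
Akt1: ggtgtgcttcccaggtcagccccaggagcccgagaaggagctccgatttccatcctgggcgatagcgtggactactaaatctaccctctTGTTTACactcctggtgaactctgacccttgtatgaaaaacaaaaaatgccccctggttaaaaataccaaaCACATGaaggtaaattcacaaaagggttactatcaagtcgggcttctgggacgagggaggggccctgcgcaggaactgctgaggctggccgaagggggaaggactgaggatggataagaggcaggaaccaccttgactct

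All 9 members had a promoter in the table. The FOXO core was in the promoter of 1 of the 9, *Akt1*, against 4.05% of all 27025 genes with a promoter there, and the E-box was in 5 of 9 against 74.99%. A gene counted if any of its windows held the motif, and the other window of *Akt1* held none of the 5 motifs. No member held the NOBOX, CRE or TATA motif in these windows, and they were in 6.12%, 2.03% and 15.7% of all genes. The GC content of the members, taken as the median of a gene's windows, ranged from 53.3% to 75% with a median of 63.3%, beside a median of 52.7% over all genes, and the median ratio of observed to expected CpG was 0.812 against 0.389. A high GC content was not common to all windows, since the window of *Akt1* shown above had 52.3% with a CpG ratio of 0.391 and 1 of the 2 windows of *Pdpk1* had 48% with a ratio of 0.060. These matches are matches of letters and carry no information on binding.

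The count table held 223 oocytes, 46 of NGO, 51 of GO1, 26 of GO2, 44 of GO3 and 56 of FGO, in 4 RNA libraries. Which library an oocyte came from is not stated, so the cells of a stage were summed into 1 pooled sample without replicates and no test between stages could be made. Levels are counts of a gene per 1e+06 UMIs of the stage sum (CPM), which is a share of the captured RNA, so fewer molecules per oocyte and a larger total cannot be told apart. The limit of size for a call was a 2-fold difference in CPM with no less than 10 CPM in the higher stage. Intervals are exact 95% Poisson or binomial intervals, and they cover counting error only. All 10 oocyte markers checked, among them *Gdf9*, *Zp3* and *Nobox*, were over 10 CPM in every stage. Of 10 granulosa markers, *Cyp19a1* and *Nr5a2* alone reached 10 CPM in any stage, and the list summed to 16.9 to 40.1 CPM. The 7 stromal markers summed to 2.06 to 13.5 CPM, and among 7 blood and endothelial markers *Pecam1* alone reached 10 CPM (4.68 to 49.5 CPM for the list), with *Hba-a1* and *Hbb-b1* at 0 in all stages.

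Stage totals were 24976634 to 64311908 UMIs, but single oocytes ranged from 22279 to 3898137 UMIs, and in GO1 the 10 deepest cells gave 80.4% of the total. Each oocyte was compared with the mean profile of every stage over all expressed genes, leaving the cell itself out. By this check 27 of the 223 oocytes were nearest to a stage other than their own, namely 8 in GO1, 5 in GO2, 2 in GO3, 12 in FGO and 0 in NGO. The 8 GO1 cells (6 nearest to GO2 and 2 to GO3) included 5 of the 10 deepest and carried 65.7% of all GO1 UMIs, so the GO1 sum was mostly made of them. For this reason each member's GO1 level is given with and without them. Because those cells were picked by their likeness to other stages, leaving them out widens the differences between stages by construction. The 8 GO1 cells had 255690 to 3898137 UMIs, beside a median of 110146 over all GO1 cells and 676786 in GO2. The comparison used CPM and took no further account of depth. The part of depth in the likeness was not tested.

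**Figure D1:**
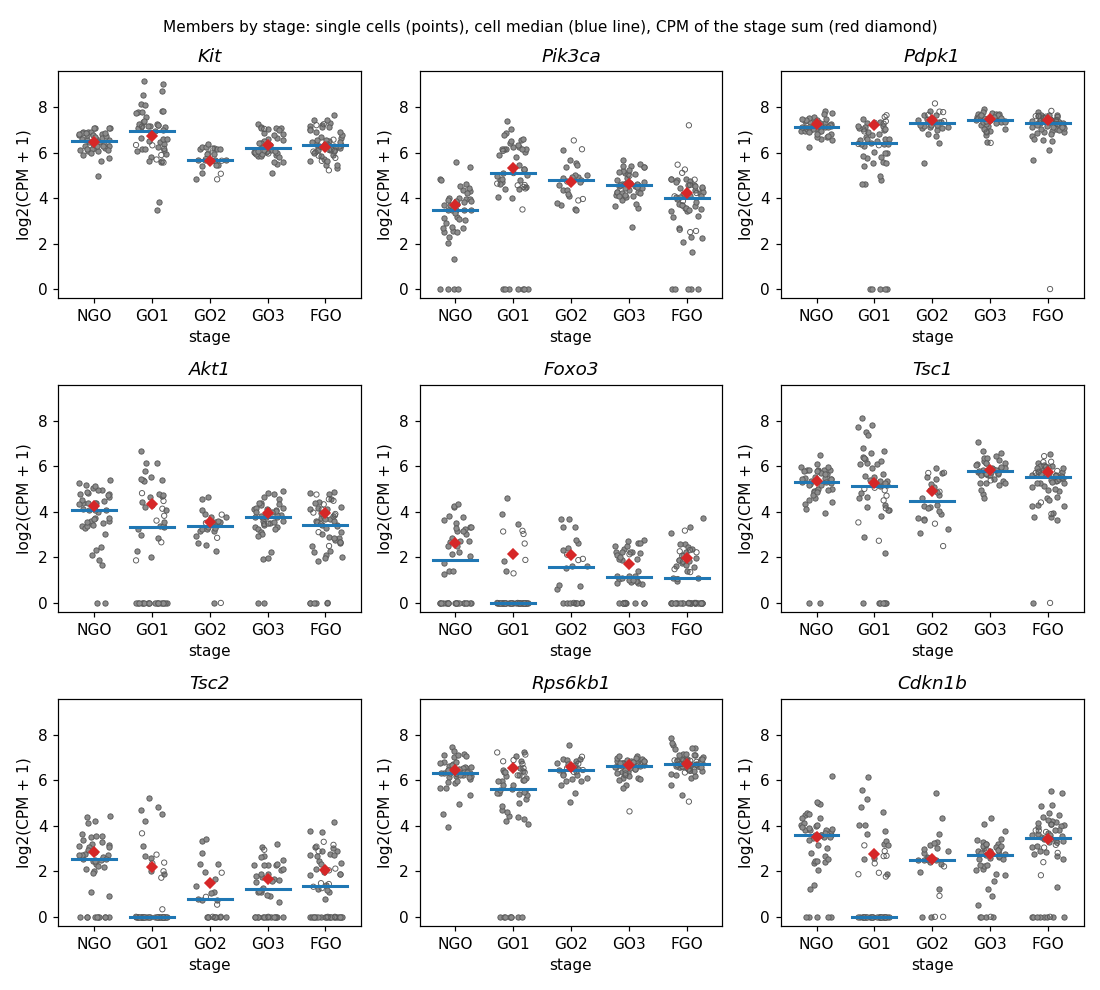
Level of the 9 members in each of the 223 oocytes by stage, on a log2(CPM + 1) scale. Filled points are cells nearest to their own stage, open points the 27 cells nearest to another stage, blue lines the medians of the cells and red diamonds the CPM of the stage sums. The red diamond of *Pdpk1* and of *Rps6kb1* sits above the blue line in GO1, and that of *Kit* below it.

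Over the members as a whole, few steps passed the limit of size, and both that did involved GO1. From NGO to GO1, 7 of the 9 members reached 10 CPM in either stage. Of these *Pik3ca* alone was higher and none was lower, where 20.6% of all 8527 tested genes were higher in GO1 and 25.7% lower. From GO1 to GO2, *Kit* alone of 6 tested members was lower and none was higher, against backgrounds of 3.03% and 0.109%. None of the 6 members tested from GO2 to GO3 was called (background 3.34% higher and 1.01% lower in GO3), nor any of the 6 tested from GO3 to FGO (2.41% higher and 3.54% lower in FGO). Between the ends of growth, NGO and FGO, 0 of 7 tested members were called, where 27.3% of all tested genes were called in either direction. No p-value exists for any of these counts, since each stage was 1 pooled sample. The median log2 ratio of the tested members was 0.08 from NGO to GO1 beside -0.15 for all tested genes, and -0.51 from GO1 to GO2 beside -0.11.

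Leaving out the 27 cells changed these counts most around GO1. From NGO to GO1, *Kit* and *Pik3ca* were then both higher and no member was lower, against 25.3% and 28.5% of all genes. From GO1 to GO2, *Kit*, *Pik3ca*, *Akt1* and *Tsc1* were lower and no member was higher, against 18.6% and 3.68% of all genes. The background of lower calls in this step thus moved from 3.03% to 18.6% along with the members. The late steps and the comparison of NGO with FGO had the same members called in both versions, except that *Tsc1* became higher in GO3 than in GO2.

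**Figure D2:**
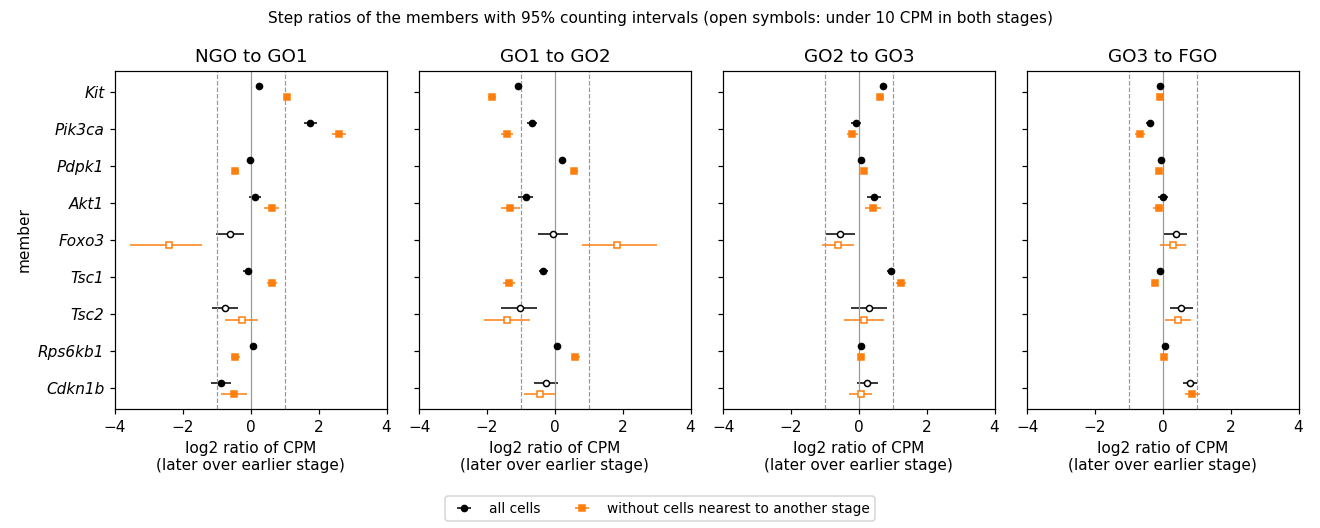
Log2 ratio of the CPM of each member, later stage over earlier stage, for the 4 steps of growth, with 95% counting intervals. Black circles are all cells, orange squares the cells without the 27 nearest to another stage, and open symbols members under 10 CPM in both stages. Dashed lines mark the 2-fold limit. Among members with 10 CPM or more in either stage, *Pik3ca* (NGO to GO1) and *Kit* (GO1 to GO2) pass it in the all-cell version. The open symbol of *Tsc2* from GO1 to GO2 also lies past it, but is under 10 CPM and was not called.

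*Kit* encodes the receptor tyrosine kinase at the head of the pathway, and its transcript was found in every one of the 223 oocytes. Its stage sums were 88.3 CPM (84.63 to 92.01) in NGO, 104.1 CPM (100.2 to 108.002) in GO1, 48.8 CPM (46.1 to 51.7) in GO2, 79.6 CPM (77.1 to 82.1) in GO3 and 74.7 CPM (72.6 to 76.9) in FGO. The order of the stages in the sums was thus GO1, NGO, GO3, FGO and GO2, with GO3 and FGO 1.07-fold apart. Part of this order depends on the setting. The mean over cells was 83.4 CPM in GO3 and 89.8 CPM in FGO. In cells thinned to 20000 UMIs FGO was above NGO, at 0.16 on the log2 scale. Over single cells the lowest, median and highest *Kit* levels were 30.3, 89.1 and 136.3 CPM in NGO and 10.1, 122.1 and 566 CPM in GO1. They were 27.4, 50.7 and 81.8 CPM in GO2, 33.9, 73.3 and 150.4 CPM in GO3, and 36.3, 78.7 and 201 CPM in FGO. GO1 had the widest spread of *Kit*, and also the shallowest cells, with a lowest depth of 22279 and a median of 110146 UMIs, beside 95108 and 676786 UMIs in GO2. The part of depth in the spread was not tested. GO2 was the stage with the lowest median and the lowest maximum.

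Between GO1 and GO2, *Kit* fell 2.13-fold (1.99 to 2.28) in the stage sums. None of the 26 GO2 oocytes was above the GO1 median of 122.1 CPM, although all 26 lay within the GO1 range. The fall was 2.67-fold when each cell had equal weight and 3.61-fold (3.33 to 3.92) without the cells nearest to another stage, where the GO1 level of *Kit* was 185 CPM. With the scaling of DESeq2 or edgeR it was -0.90 or -0.92 on the log2 scale, which is short of the 2-fold limit. The call therefore depends on the scaling, and the direction did not in any setting tried.

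From GO2 to GO3, *Kit* was 1.63-fold (1.53 to 1.74) higher, under the limit, and 40 of 44 GO3 cells were above the GO2 median. From NGO to GO1 it was 1.18-fold (1.11 to 1.25) higher in the sums, and 31 of 51 GO1 cells were above the NGO median. The 8 GO1 cells nearest to another stage had 46.3, 64.6 and 140.8 CPM of *Kit* as lowest, median and highest, and the other 43 had 10.1, 138.8 and 566 CPM. Without those 8, *Kit* was 2.10-fold (1.97 to 2.24) higher in GO1 than in NGO, past the limit. That call rests on the deepest remaining GO1 cell, of 2380942 UMIs and 273 CPM of *Kit*, which gave 25.9% of the remaining UMIs. Leaving it out as well gave a ratio of 1.75.

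The 3 genes whose stage pattern was most like that of *Kit* were *Cab39*, *Wdr11* and *Atrn*. They were ranked over 8670 genes by the root mean square difference of log2(CPM + 1), centred over the 5 stages, which was 0.07 for each. *Cab39*, a scaffold of the LKB1 kinase complex, had 16.3, 21.2, 9.09, 15.6 and 15.9 CPM from NGO to FGO. All 3, like *Kit*, were highest in GO1 and lowest in GO2. The likeness rests on 5 stage sums.

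*Pik3ca*, the gene of the catalytic p110 alpha subunit of PI3K, showed the largest step of any member in the stage sums. Its stage sums were 11.8 CPM (10.5 to 13.2) in NGO, 39.5 CPM (37.20 to 42.004) in GO1, 24.8 CPM (22.9 to 26.9) in GO2, 23.3 CPM (21.96 to 24.66) in GO3 and 17.8 CPM (16.7 to 18.8) in FGO. Over cells the lowest, median and highest levels were 0, 10.3 and 47.6 CPM in NGO and 0, 33.3 and 165 CPM in GO1. NGO was the lowest stage, and 44 of 51 GO1 oocytes were above the NGO median, with 20 of them above every NGO oocyte.

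*Pik3ca* rose 3.36-fold (2.95 to 3.83) from NGO to GO1. The rise was 3.74-fold with equal weight for each cell and 6.05-fold (5.27 to 6.96) without the 8 cells, where GO1 stood at 71.3 CPM, and it was called in every setting except the one that asked for 50 CPM. Leaving out the deepest remaining GO1 cell too gave 4.76-fold. After GO1 the level was 1.59-fold (1.44 to 1.76) lower in GO2. GO2 and GO3, 1.07-fold (0.966 to 1.18) apart, did not differ beyond counting error, and FGO was 1.31-fold (1.21 to 1.42) below GO3. None of these steps passed the limit with all cells. Without the cells nearest to another stage the fall to GO2 passed it, at 2.68-fold (2.37 to 3.02), and was 2.11-fold once the deepest remaining GO1 cell was left out too. The medians over cells were 26.4 CPM in GO2, 22.7 CPM in GO3 and 15.1 CPM in FGO, with ranges that overlapped throughout. FGO remained 1.51-fold (1.32 to 1.72) above NGO, under the limit.

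*Pdpk1* encodes the kinase that activates AKT at the membrane. Its stage sums stayed within 1.21-fold over all 5 stages, from 149.1 CPM in GO1 to 179.96 CPM in GO3. The level in the single cells of GO1 was lower than their sum. Their lowest, median and highest values were 0, 84.9 and 199 CPM, against 75.8, 140.9 and 229 CPM in NGO and 45.6, 154.6 and 286 CPM in GO2. Thus 19 of 51 GO1 cells were below every NGO cell, and 25 of 26 GO2 cells were above the GO1 median.

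The gap between sum and median in GO1 followed the depth of the cells. The 10 deepest GO1 cells had 164 CPM of *Pdpk1* and the other 41 had 87.7 CPM. The 8 cells nearest to another stage had a median of 155.77 CPM and the remaining 43 a median of 82.981 CPM. Without the 8, *Pdpk1* was at 109.7 CPM in GO1, which was 1.37-fold (1.28 to 1.47) lower than in NGO, and it was then 1.49-fold (1.39 to 1.61) higher in GO2, neither past the limit. Depth and stage likeness went together in these cells, and their parts in the result were not tested.

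**Figure D3:**
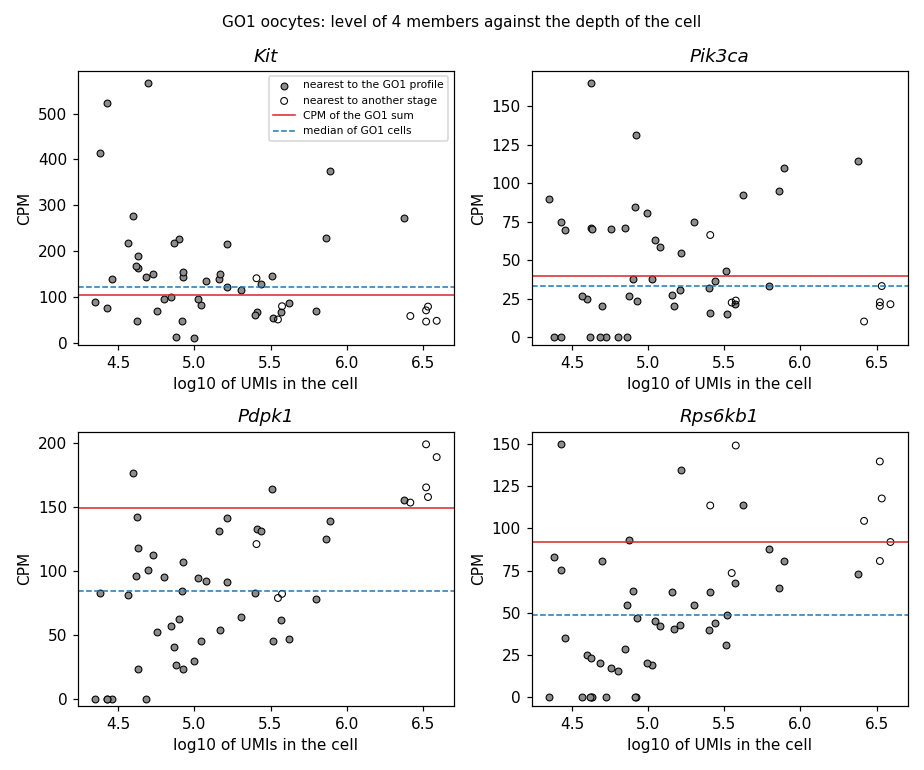
CPM of *Kit*, *Pik3ca*, *Pdpk1* and *Rps6kb1* in the 51 GO1 oocytes against the log10 of the UMIs of the cell. Open circles are the 8 cells nearest to another stage, the red line is the CPM of the GO1 sum and the blue dashed line the median of the cells. Of the 6 deepest cells 5 are open circles, which lie low for *Kit* and *Pik3ca* and high for *Pdpk1*.

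*Akt1*, a gene of the AKT kinase, had 17.9 CPM (16.3 to 19.7) in NGO and 19.5 CPM (17.9 to 21.3) in GO1. Its later levels were 10.8 CPM (9.52 to 12.1) in GO2, 14.7 CPM (13.7 to 15.8) in GO3 and 14.7 CPM (13.8 to 15.6) in FGO. GO3 and FGO could not be separated within counting error, nor could NGO and GO1 with all cells. Without the 8 cells *Akt1* was at 27.5 CPM (24.2 to 31.1) in GO1, 1.54-fold (1.31 to 1.79) above NGO, while in thinned cells the log2 ratio of GO1 to NGO was -0.997, so that its direction depends on the setting. In the step to GO2 *Akt1* was 1.81-fold (1.56 to 2.11) lower, an interval that crosses the limit. Without the cells nearest to another stage the difference was 2.48-fold (2.05 to 3.01), but it was 1.64-fold once the deepest remaining GO1 cell, at 54.2 CPM, was left out as well. With equal weight for each cell it was 1.68-fold. In thinned cells the log2 ratio of GO2 to GO1 was -0.03.

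*Foxo3*, the factor whose loss from the nucleus marks activation, was scarce in every stage and never reached 10 CPM. Its sums were 5.20 CPM (4.35 to 6.17) in NGO, 3.40 CPM (2.74 to 4.18) in GO1, 3.28 CPM (2.61 to 4.08) in GO2, 2.25 CPM (1.85 to 2.70) in GO3 and 2.91 CPM (2.51 to 3.36) in FGO. They rest on 82 to 187 UMIs. NGO was the highest stage, 1.79-fold (1.42 to 2.25) above FGO, and GO1 and GO2 did not differ beyond counting error.

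Most of the *Foxo3* UMIs of GO1 came from the cells nearest to another stage. The remaining 43 GO1 oocytes held 9 of the 91 UMIs, which is 0.980 CPM (0.448 to 1.86), and by that value GO1 was 5.31-fold (2.71 to 11.9) below NGO and 3.54-fold (1.75 to 8.11) below GO2. These ratios stand under the level of 10 CPM at which changes were called. A *Foxo3* UMI was seen in 27 of 46 NGO, 11 of 51 GO1, 17 of 26 GO2, 32 of 44 GO3 and 30 of 56 FGO oocytes. These shares move with depth and no cell type that lacks the gene was sampled, so no order is read from them. The genes most like *Foxo3* in stage pattern, out of 8671, were *Cdca3*, *Ak6* and *Znhit1*, with root mean square differences of 0.03 to 0.05. In the sums of all cells all 3 were highest in NGO and lowest in GO3, as *Foxo3* was. With equal weight for each cell, or without the 8 cells, *Foxo3* was lowest in GO1 instead. The 1 CPM added before the log2 narrows the ratios of a gene as low as *Foxo3*. *Cdca3*, a cell cycle gene, had 61.7, 45.1, 43.4, 32.6 and 37.6 CPM from NGO to FGO.

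*Tsc1* encodes hamartin and *Tsc2* encodes tuberin, the partners of the complex that restrains mTORC1. *Tsc1* had 39.6 CPM (37.1 to 42.1) in NGO, 37.2 CPM (34.95 to 39.62) in GO1, 29.4 CPM (27.3 to 31.6) in GO2, 56.3 CPM (54.2 to 58.4) in GO3 and 52.7 CPM (50.9 to 54.5) in FGO. Over cells the lowest, median and highest values were 4.66, 21.2 and 60.6 CPM in GO2 and 23.6, 55.1 and 132.04 CPM in GO3. Every one of the 44 GO3 oocytes was above the GO2 median, and 14 were above every GO2 oocyte.

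From GO2 to GO3, *Tsc1* was 1.92-fold (1.77 to 2.08) higher in the sums, just short of the limit. It passed the limit with equal weight for each cell, at 2.24-fold, and without the cells nearest to another stage, at 2.38-fold (2.15 to 2.64). It stayed under it on the log2 scale with DESeq2 scaling (0.79), with edgeR scaling (0.85) and in thinned cells (0.67). The step before, into GO2, showed *Tsc1* 1.27-fold (1.15 to 1.40) lower in the sums. This step was 2.04-fold with equal weight for each cell and 2.56-fold (2.25 to 2.91) without the 8 GO1 and 5 GO2 cells. From NGO to GO1, *Tsc1* was 1.06-fold (0.972 to 1.16) lower with all cells and 1.53-fold (1.38 to 1.70) higher without the 8, where GO1 stood at 60.6 CPM. GO1 again had the widest spread, from 0 to 283 CPM with a median of 34.03 CPM.

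*Tsc2* was too low for a call in any step. Its sums were 6.15 CPM (5.22 to 7.20) in NGO, 3.63 CPM (2.94 to 4.42) in GO1, 1.76 CPM (1.28 to 2.36) in GO2, 2.15 CPM (1.76 to 2.60) in GO3 and 3.13 CPM (2.71 to 3.59) in FGO. NGO was the highest stage and GO2 the lowest, and GO2 and GO3 did not differ beyond counting error. From GO1 to GO2 *Tsc2* was 2.06-fold (1.43 to 3.01) lower, which is past 2-fold but under 10 CPM in both stages. FGO was 1.97-fold (1.59 to 2.44) below NGO. Without the 8 cells GO1 was at 5.12 CPM (3.76 to 6.80), which did not differ from NGO beyond counting error. Between *Tsc1* and *Tsc2*, the lowest stage was GO2 for both and the highest was GO3 for *Tsc1* and NGO for *Tsc2*.

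*Rps6kb1* encodes the S6 kinase downstream of mTORC1. Its stage sums differed by at most 1.20-fold and stood at 87.1, 91.95, 96.4, 101.3 and 104.7 CPM from NGO to FGO. Each step in the sums was at most 1.06-fold. The cells of GO1 were again apart, with a lowest, median and highest value of 0, 48.9 and 149.6 CPM, beside 14.2, 79.96 and 177 CPM in NGO and 31.8, 86.1 and 186 CPM in GO2. As for *Pdpk1*, the 8 GO1 cells nearest to another stage had the higher level, with a median of 108.87 CPM against 42.97 CPM in the other 43. Without them the GO1 level was 63.7 CPM, 1.37-fold (1.248 to 1.501) below NGO and 1.52-fold (1.38 to 1.67) below GO2.

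*Cdkn1b*, the gene of the inhibitor p27, had 10.5 CPM (9.29 to 11.9) in NGO, 5.68 CPM (4.81 to 6.66) in GO1, 4.76 CPM (3.95 to 5.70) in GO2, 5.68 CPM (5.04 to 6.38) in GO3 and 9.86 CPM (9.11 to 10.7) in FGO. NGO and FGO thus stood together at the top, 1.07-fold (0.921 to 1.23) apart, and the 3 growing stages together below. From NGO to GO1 the level was 1.85-fold (1.51 to 2.27) lower, and 9 of 51 GO1 cells were above the NGO median of 11.1 CPM. From GO3 to FGO it was 1.74-fold (1.506 to 2.004) higher, and 42 of 56 FGO cells were above the GO3 median of 5.56 CPM. Without the 10 deepest cells of each stage both steps passed the limit, at -1.15 and 1.15 on the log2 scale. With the 27 cells left out neither did, and GO1 was then at 7.51 CPM (5.84 to 9.50), 1.40-fold (1.07 to 1.85) below NGO.

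The other genes of the pathway were taken as a list of 65 genes in 9 roles, set by function. At the start of growth 44 of them reached 10 CPM in NGO or GO1. Of these 5 were higher in GO1 and 12 lower, beside the backgrounds of 20.6% and 25.7%. Their median log2 ratio was -0.21 beside -0.15 for all tested genes. Without the 8 GO1 cells the counts were 15 higher and 15 lower of 46, beside 25.3% and 28.5%.

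**Figure D4:**
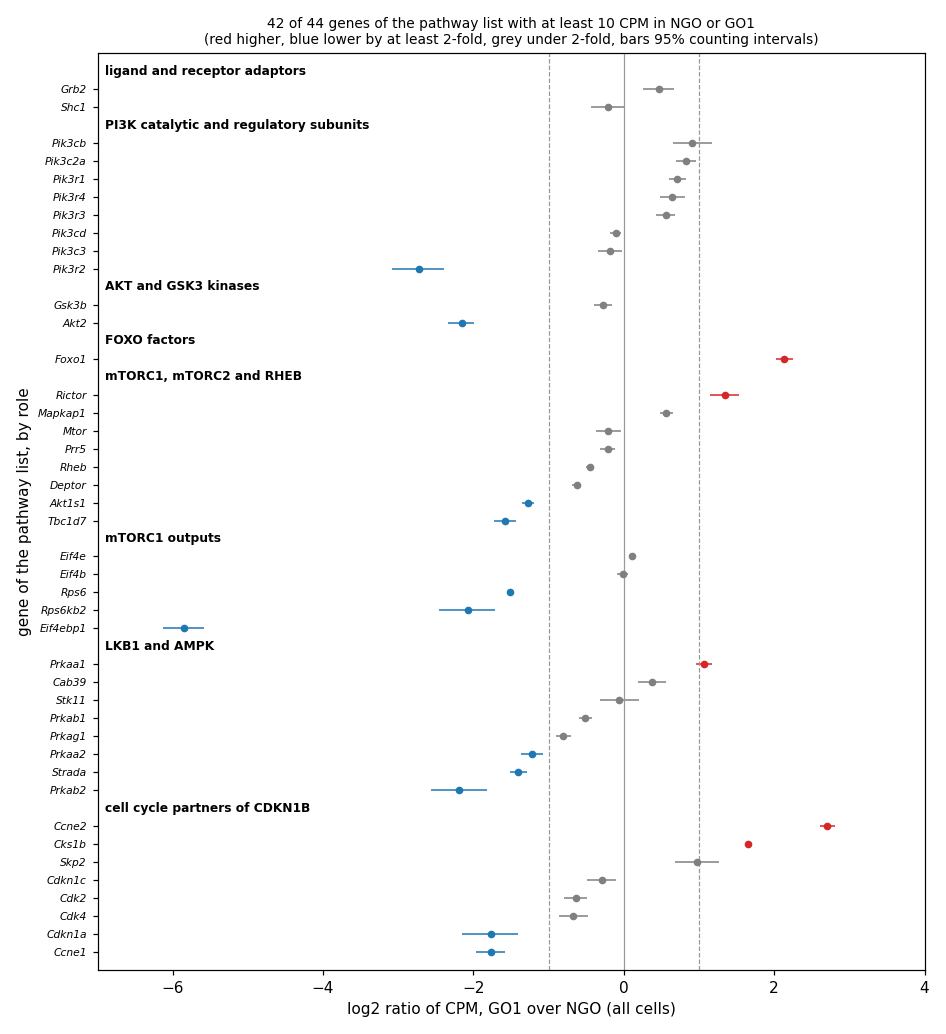
Log2 ratio of the CPM in GO1 over NGO for genes of the pathway list with at least 10 CPM in either stage, 42 of the 44 being shown, all cells, grouped by role, with 95% counting intervals. Red genes were higher and blue genes lower by at least 2-fold, and dashed lines mark that limit. *Eif4ebp1* lies farthest from 0.

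At the level of the ligand, *Kitl*, which granulosa cells make for KIT, was at 1.35, 5.49, 5.65, 7.11 and 3.53 CPM from NGO to FGO, too low for a call. The summed granulosa markers were 16.9, 40.1, 31.5, 29.9 and 18.6 CPM in the same order, and their part in the *Kitl* level was not tested. Of the 6 genes of the ligand and receptor adaptors, 2 were tested from NGO to GO1 with all cells, and neither was called. In that step 20.6% of all tested genes were higher and 25.7% lower. The other comparisons tested 1 or 2 of the 6, and none was called. Without the cells nearest to another stage *Grb2*, the gene of an adaptor that binds activated receptors, was called 2.48-fold higher in GO1 than in NGO and 3.21-fold lower in GO2 than in GO1.

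Among PI3K subunits, the regulatory subunit gene *Pik3r2* fell 6.62-fold (5.23 to 8.46) from NGO to GO1, from 20.3 to 3.07 CPM. Of 8 tested subunit genes it was the 1 called in that step, where 20.6% of all tested genes were higher and 25.7% lower. *Pik3r1*, another regulatory subunit gene, was 1.63-fold (1.51 to 1.77) higher, at 65.1 CPM in GO1, and passed the limit without the 8 cells, at 2.03-fold. So did *Pik3cb* (2.08-fold), *Pik3c2a* (2.80-fold) and *Pik3r4* (2.66-fold). That version thus had 4 of 8 tested subunit genes higher in GO1, beside 25.3% of all tested genes. The list of subunits covers all classes of PI3K. *Pik3c2a* and *Pik3r4* belong to other classes than the one that KIT recruits, so the count is not one of that class. *Pik3r2* was then 8.10-fold lower, beside 28.5% of all tested genes lower. Leaving out the deepest remaining GO1 cell as well was not tried for these genes.

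*Akt2*, a relative of *Akt1*, fell 4.46-fold (3.96 to 5.04) from NGO to GO1, from 57.1 to 12.8 CPM, and its median over cells went from 60.4 to 0 CPM. The median depth of the cells was 540432 UMIs in NGO and 110146 in GO1, and a low transcript can go uncounted in a shallow cell. The part of depth in the median of 0 was not tested. In FGO *Akt2* was at 17.2 CPM, still 3.32-fold (3.07 to 3.59) below NGO. *Akt1* passed the limit neither in that step nor between NGO and FGO.

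*Foxo1*, the relative of *Foxo3*, rose 4.39-fold (4.05 to 4.76) from NGO to GO1, from 28.8 to 126.3 CPM. Its lowest, median and highest levels over cells were 7.65, 27.9 and 97.3 CPM in NGO and 0, 132.5 and 364 CPM in GO1, with overlap of the ranges. Afterwards it was at 73.03, 76.2 and 55.4 CPM in GO2, GO3 and FGO, so that FGO was 1.93-fold (1.78 to 2.09) above NGO. *Foxo3* by contrast was at its highest in NGO. Without the 8 cells *Foxo1* was at 213 CPM in GO1 and its rise was 7.39-fold.

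In mTORC1, the kinase gene *Mtor* was at 24.5 CPM in NGO and 21.2 in GO1, 1.15-fold (1.03 to 1.30) lower, but 1.32-fold higher without the 8 cells. *Rheb*, whose product activates mTORC1 and is switched off by the TSC complex, was 1.37-fold (1.32 to 1.42) lower in GO1, at 196 CPM against 268 in NGO. *Rptor*, the mTORC1 scaffold, was at 7.82 CPM in NGO and 2.68 to 6.90 CPM later, too low for a call. Of the 8 tested genes of mTORC1, mTORC2 and RHEB, 1 was higher and 2 were lower in GO1, beside 20.6% and 25.7% of all tested genes.

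Among the outputs of mTORC1, *Eif4ebp1*, the gene of a repressor of cap-dependent translation that mTORC1 inactivates, fell 57.8-fold (48.1 to 70.2) from NGO to GO1. Its level was 249 CPM in the non-growing oocytes and 4.30, 5.93, 9.19 and 34.6 CPM in the 4 later stages. The lowest NGO cell, at 79.7 CPM, was above the highest GO1 cell, at 44.9 CPM. The share of all tested genes without overlap between the cells of these 2 stages was not counted, so no trait particular to *Eif4ebp1* is read from this. In this step 25.7% of all tested genes were lower in GO1. Without the 8 GO1 cells the fall was 37.4-fold. *Eif4ebp1* then rose 3.76-fold (3.40 to 4.17) from GO3 to FGO, the only pathway gene called in that step, and FGO was still 7.18-fold (6.84 to 7.54) below NGO. *Rps6kb2*, the paralogue of *Rps6kb1*, fell 4.22-fold (3.28 to 5.49) from NGO to GO1, from 12.1 to 2.88 CPM, and 7.97-fold without the 8 cells, while *Rps6kb1* stayed within 1.06-fold in the sums. *Rps6*, the ribosomal protein that S6 kinase phosphorylates, fell 2.84-fold (2.76 to 2.93), from 587 to 206 CPM. Copies of *Rps6* elsewhere in the genome could share its reads, so its level is less certain.

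The genes of LKB1 and AMPK act on the TSC complex from the side of energy supply. Of 8 tested, 1 was higher and 3 were lower in GO1, beside 20.6% and 25.7% of all tested genes. *Stk11*, the LKB1 gene, was at 10.2 CPM in NGO and 9.76 CPM in GO1, 1.04-fold (0.873 to 1.24) apart, and at 11.8 CPM in GO1 without the 8 cells. *Prkab2*, an AMPK subunit gene, fell 4.55-fold (3.54 to 5.93), from 12.9 to 2.84 CPM. Among 8 tested cell cycle partners of CDKN1B, 2 were higher and 2 lower, beside the same shares of all tested genes. *Ccne2*, a cyclin E gene whose kinase CDKN1B inhibits, rose 6.51-fold (6.09 to 6.98), from 38.2 to 249 CPM, and 11.8-fold without the 8 cells. It remained at 228 CPM in FGO, 5.95-fold (5.58 to 6.36) above NGO.

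In the later steps few genes of the list were called. Of 38 tested genes 3 were lower in GO2 than in GO1 and 0 higher, beside 3.03% and 0.109% of all tested genes, and 1 of these 3 calls remained with DESeq2 or edgeR scaling. From GO2 to GO3, 3 of 37 were higher and 0 lower, beside 3.34% and 1.01%. From GO3 to FGO 1 of 39 was higher and 0 lower, beside 2.41% and 3.54%. Between NGO and FGO 6 of 42 were called, beside 27.3%, 2 higher and 4 lower, which became 3 and 3 with DESeq2 scaling and 4 and 3 with edgeR scaling.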

How the data were processed

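Single oocytes were sequenced as polyA RNA with UMIs in 4 libraries. The authors split reads by cell barcode, aligned them with Tophat to mm9, collapsed reads of the same UMI and deposited raw UMI counts for every gene in every cell. Sums over the cells of a stage, 24976634 to 64311908 UMIs, were divided by the stage total to give CPM. Calls used 2-fold and 10 CPM over the whole table, and intervals are at 95%. Oocytes were picked by hand and no doublet caller was run. The members and gene lists were chosen with earlier results of these data known. Named genes are the 9 members, pathway genes set by function, other pathway genes called from NGO to GO1 with at least 4-fold, the 3 genes most like *Kit* and like *Foxo3*, and overlapping genes. Some genes of the list are not reported here. Alternatives were size factors (DESeq2 1.42.0), TMM factors (edgeR 4.0.16), the mean over cells, sums without the 10 deepest cells, cells thinned to 20000 UMIs, limits of 1.5-fold, 0 CPM or 50 CPM, and, chosen after seeing the data, sums without the 27 cells nearest to another stage. Python 3.11.15, scipy 1.17.1 and R 4.3.3 were used. The iscCOOL-seq data were not analysed here.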

Additional observations from a re-analysis of the deposited data

How the results depend on the processing

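No paired analysis was possible because each stage was 1 pooled sample. The called ratios of members, *Pik3ca* from NGO to GO1 and *Kit* from GO1 to GO2, did not change direction in any setting. Among 268 alternative log2 ratios of the members, 44 uncalled ones changed sign. In thinned cells 2 ratios had no value. The scaling of DESeq2 and edgeR moved the median log2 ratio of all tested genes by 0.10 and 0.16 from NGO to GO1 and by 0.19 and 0.17 from GO1 to GO2, and the share of calls that were higher went from 3.46% to 14.6% (DESeq2) from GO1 to GO2, from 76.8% to 59.04% (DESeq2) and 66.8% (edgeR) from GO2 to GO3, and from 41.4% to 56.8% (edgeR) from NGO to FGO.

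The number of members called from NGO to GO1 (1) became 2 without the 10 deepest cells, 2 at 1.5-fold, 2 without the cells nearest to another stage and 0 at 50 CPM. From GO1 to GO2 (1) it became 0 with DESeq2 and with edgeR scaling, 2 with the mean over cells, 3 at 1.5-fold, 2 without a CPM minimum and 4 without the cells nearest to another stage. From GO2 to GO3 (0) it became 1 with the mean over cells, without the deepest cells and without the cells nearest to another stage, and 2 at 1.5-fold. From GO3 to FGO (0) it became 1 with the mean over cells and without the deepest cells, and from NGO to FGO (0) it became 1 at 1.5-fold.

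The pathway list had 17 calls from NGO to GO1, and 27 without the deepest cells, 30 in thinned cells, 26 at 1.5-fold, 31 without a minimum, 10 at 50 CPM and 30 without the cells nearest to another stage. From GO1 to GO2 its 3 calls became 1 with either scaling, 8 with the mean over cells, 7 without the deepest cells, 12 in thinned cells, 10 at 1.5-fold, 9 without a minimum, 0 at 50 CPM and 15 without the cells nearest to another stage. From GO2 to GO3 its 3 became 5, 6, 7, 8, 1 and 6 with the mean over cells, without the deepest cells, at 1.5-fold, without a minimum, at 50 CPM and without the cells nearest to another stage. From GO3 to FGO its 1 became 5 in thinned cells and at 1.5-fold, 11 without a minimum and 0 at 50 CPM, and from NGO to FGO its 6 became 10, 11, 16, 19 and 16 with the mean over cells, without the deepest cells, in thinned cells, at 1.5-fold and without a minimum. The cause of these differences was not tested.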

Other observations

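Of the pathway list, *Ccne1* and *Prkaa2* were low in the small growing oocytes and higher at both ends of growth. All genes named in this paragraph were chosen after their values were seen. *Ccne1*, the other cyclin E gene, was at 35.6, 10.4, 10.01, 23.1 and 41.2 CPM from NGO to FGO, and it passed the limit of size both in the fall from NGO to GO1 and in the rise from GO2 to GO3. *Prkaa2*, a catalytic subunit gene of AMPK, passed it in the same steps, with 49.3, 21.2, 20.7, 48.3 and 65.2 CPM from NGO to FGO. Of all tested genes, 25.7% were lower in GO1 than in NGO and 3.34% higher in GO3 than in GO2. The share called in both steps was not counted. *Prkaa1*, the other catalytic subunit gene, was by contrast lowest in NGO, at 45.2 CPM. It was at 94.6 CPM in GO1 and 81.3 CPM in FGO. *Gsk3b*, a kinase that AKT inhibits, rose 2.46-fold from GO2 to GO3, from 28.4 to 69.9 CPM, in the step in which *Tsc1* was 1.92-fold higher. *Gsk3b* was at 50.1 CPM in NGO and 41.3 CPM in GO1, which is not a call.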
